A study of Mus musculus with 10 samples.

Results

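The endoplasmic reticulum (ER) folds the proteins that a cell secretes or stores in granules. The 10 genes described here encode its chaperones, disulfide isomerases and stress regulators: *Hspa5*, *Hsp90b1*, *Calr*, *Canx*, *Pdia3*, *Pdia4*, *Pdia6*, *Xbp1*, *Sdf2l1* and *Dnajb9*. They were picked by name for what they are known to do, with earlier results of these data known. They are 10 of the 51717 genes to which transcript reads were summed, and all 10 were among the 12381 genes that passed the filter on low counts.

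RNA-seq had been done on granulocyte-macrophage progenitors (GMPs) of male C57Bl6/N mice, the marrow cells that give rise to neutrophils and monocytes. CD45.2+ donor GMPs were sorted from mixed bone marrow chimeras, in which irradiated CD45.1 recipients had been given CD45.2 donor marrow together with CD45.1 marrow, so that host cells and competitor cells stayed present beside the cells sorted. WT donors carried *ROSA26 CreER+/-* and recent KO donors carried *Mpc2fl/fl; ROSA26 CreER+/-*, and both groups ate tamoxifen chow for 2 wk before the marrow was taken. Tamoxifen and CreER were therefore shared by the groups, CreER is made in all tissues rather than in 1 cell type, and *Mpc2*, which encodes a subunit of the carrier that brings pyruvate into mitochondria, is lost only in donor-derived cells. Each group had 5 samples, with 1 mouse behind each WT sample and 2 pooled mice behind each recent KO sample. The study compared the groups to learn which genes change in GMPs soon after mitochondrial pyruvate import is lost.

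HSPA5 (BiP) is the Hsp70 of the ER, and it both holds unfolded chains and keeps the stress sensors IRE1, PERK and ATF6 inactive until such chains accumulate. The sensors then drive the unfolded protein response, in which IRE1 splices *Xbp1* mRNA and the XBP1 and ATF6 proteins raise chaperone genes. GMPs and the promyelocytes that follow them make very large amounts of primary granule proteins such as myeloperoxidase and neutrophil elastase, and calreticulin and calnexin are known to bind the myeloperoxidase precursor while it folds.

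Samples held 14033800 to 19745400 estimated reads, so that sampling noise was small for all of the genes except *Dnajb9*. *Mpc2* lay between 60.9 and 117 CPM (read counts scaled to library size with TMM factors) in WT samples and between 17.1 and 43.9 CPM in recent KO samples, a log2 fold change of -1.46 (SE 0.24, adjusted p = 0.0156, edgeR quasi-likelihood test). The GMP markers *Kit*, *Cd34*, *Fcgr3* and *Cebpa* were present in every sample, the lowest of them being *Cebpa* at 11.2 to 15.7 CPM. Libraries differed in other cells' transcripts. *Igkc*, an immunoglobulin light chain made by B cells and plasma cells, was at 14.8 CPM in recent KO replicate 3 and 28.2 CPM in recent KO replicate 5, and at 0.659 CPM or less in the other 8 samples. The 10 plasma cell markers summed to 101 to 143 CPM in WT and 63.2 to 107 CPM in recent KO samples, most of it from *Ighm*. Without *Ighm*, the other 9 summed to 2.02 to 3.49 CPM in WT samples, and to 19.7 and 41.2 CPM in recent KO replicates 3 and 5, with the rest of the recent KO group at 2.25 to 3.17 CPM. Of the 10, 7 exceeded 3 counts in some sample, and *Mzb1* was at 0 in all but recent KO replicate 4. The 8 macrophage markers summed to 19.4 to 34.6 CPM in WT and 37.2 to 63.3 CPM in recent KO samples, with the complement genes *C1qa*, *C1qb* and *C1qc* higher in recent KO GMPs at adjusted p-values of 0.0406, 0.016 and 0.0383 by edgeR. Of the 8, 7 had a higher mean in recent KO samples, as did 49.6% of all genes, and 5 were higher at an unadjusted p under 0.05, as were 4.89% of all genes. The part of these cells in the results below was not tested beyond leaving out single samples.

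The 10 genes spanned a wide range of expression in GMPs. By TPM, which is scaled to transcript length and so allows genes to be compared, *Calr* was the most abundant at 1824 ± 182 TPM in WT samples (SD, n = 5) and ranked 109 among all genes by its mean over the 10 samples. *Calr* encodes calreticulin, a soluble chaperone that binds glycoproteins bearing a trimmed sugar chain. Next came *Sdf2l1* (780 ± 144 TPM), whose product works in a complex with HSPA5, and *Hspa5* itself (640 ± 199 TPM). The disulfide isomerase genes *Pdia6* (542 ± 46.2 TPM) and *Pdia3* (544 ± 72.7 TPM) followed, and then *Hsp90b1* (281 ± 44.6 TPM), which encodes GRP94, the Hsp90 of the ER.

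*Pdia4*, another disulfide isomerase gene, was at 125 ± 17.4 TPM, the transcription factor gene *Xbp1* at 80.9 ± 13.6 TPM, and *Canx*, which encodes calnexin, the membrane-bound relative of calreticulin, at 63.4 ± 3.24 TPM. *Dnajb9*, which encodes an Hsp40 that acts on HSPA5, was far below the rest at 3.31 ± 0.70 TPM and rested on 84 to 175 reads per sample. The order by mean TPM over all 10 samples was *Calr*, *Sdf2l1*, *Hspa5*, *Pdia6*, *Pdia3*, *Hsp90b1*, *Pdia4*, *Xbp1*, *Canx* and *Dnajb9*. Some neighbours in it did not separate. *Hspa5* exceeded *Pdia6* in 7 of 10 samples, *Pdia6* exceeded *Pdia3* in 8 of 10, and *Xbp1* exceeded *Canx* in 9 of 10, whereas *Sdf2l1* exceeded *Hspa5* and *Pdia4* exceeded *Xbp1* in 10 of 10 samples although their ranges over samples overlapped. As a share of all TPM, the 10 genes together took 0.439% to 0.607% in WT GMPs, and 0.358% to 0.447% after *Mpc2* loss, ranges that overlapped.

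Several of these promoters carry the ER stress response element (ERSE), the sequence through which ATF6 and XBP1 raise chaperone genes. RefSeq promoter windows (GRCm38.p6, 250 bases before to 50 bases after the transcription start) were found for 10 of 10 genes and searched on both strands for CCAAT and CCACG separated by 9 free bases. These starts differ from those of GENCODE M21, used for gene positions below, by up to 258 bases (*Dnajb9*), with 127 for *Pdia3* and 120 for *Hspa5*. The *Dnajb9* window lies wholly inside its M21 gene, so bases before that start were not searched. Upstream here refers to the RefSeq start, and the *Hspa5* ERSE lies after the M21 start of that gene. ERSE matches were found in 5 of the 10 windows, with 1 match each in *Hspa5*, *Calr*, *Canx* and *Pdia6* and 2 in *Hsp90b1*, whereas 39 of 32851 mouse promoter windows (0.119%) held one. The related ERSE-II (ATTGG, 1 free base, CCACG) was in none of the 10 windows and in 0.0365% of all windows. The core of the UPRE, TGACGTG, an element that XBP1 binds, was in *Hspa5* alone among the 10, and in 2.01% of all windows. Letters that match are a description of the sequence and do not show that a factor bound there. The matches are shown with the bases around them because 5 of the 10 genes hold the same element. The genes were picked as known ER chaperone and stress genes, the kind that ERSE is known to raise. Their share with ERSE is therefore not independent of the choice. Capitals mark the 2 fixed parts of ERSE, or the UPRE core, and every sequence is written 5′ to 3′ in the direction of the gene's transcription, so that an ERSE on the opposite strand appears as CGTGG and ATTGG.
Hspa5 ERSE, chr2:34771995-34772054, plus strand, the match 65 to 47 bases upstream of the start: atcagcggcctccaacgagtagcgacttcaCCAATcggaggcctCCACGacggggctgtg
Hspa5 UPRE core, chr2:34771903-34771950, plus strand, 157 to 151 bases upstream: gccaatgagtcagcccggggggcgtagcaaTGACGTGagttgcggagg
Hsp90b1 ERSE, chr10:86705522-86705581, minus strand, 107 to 89 bases upstream: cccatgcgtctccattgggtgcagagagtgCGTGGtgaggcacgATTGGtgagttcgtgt
Hsp90b1 second ERSE, chr10:86705627-86705686, minus strand, 212 to 194 bases upstream: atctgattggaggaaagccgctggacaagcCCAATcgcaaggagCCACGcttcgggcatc
Calr ERSE, chr8:84847064-84847123, minus strand, 162 to 144 bases upstream: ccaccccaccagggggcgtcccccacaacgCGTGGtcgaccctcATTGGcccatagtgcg
Canx ERSE, chr11:50325789-50325848, minus strand, 145 to 127 bases upstream: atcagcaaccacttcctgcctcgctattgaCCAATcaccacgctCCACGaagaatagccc
Pdia6 ERSE, chr12:17266461-17266520, plus strand, 98 to 80 bases upstream: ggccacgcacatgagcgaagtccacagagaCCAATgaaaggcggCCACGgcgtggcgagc

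**Figure D1:**
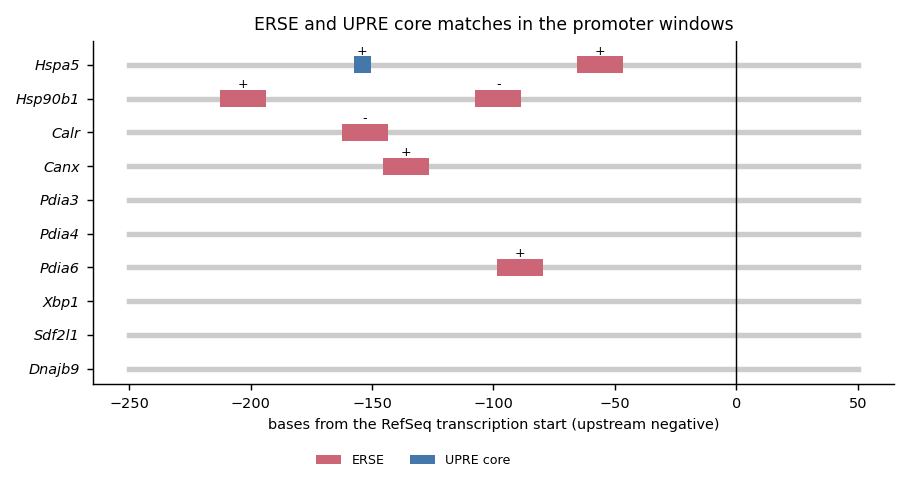
Position of each ERSE (red) and UPRE core (blue) match in the promoter windows, in bases from the RefSeq transcription start, with the strand of the match above it. The 6 ERSE matches lie in 5 of the 10 windows, all upstream of the RefSeq start, and the windows of Pdia3, Pdia4, Xbp1, Sdf2l1 and Dnajb9 hold none. The Dnajb9 window lies inside its GENCODE M21 gene, so bases before that start were not searched.

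All 10 mRNAs had a lower mean in recent KO than in WT GMPs, none of them at an adjusted p under 0.05. The log2 fold changes ran from -0.46 (*Hspa5*) to -0.15 (*Canx*) with a median of -0.36, against a median of -0.0018 over all 12381 genes, of which 50.4% had a lower mean in recent KO samples. By edgeR, 0 of the 10 passed an adjusted p of 0.05, as did 0.331% of all genes, and 9 of the 10 were lower at an unadjusted p under 0.05, as were 5.35% of all genes. DESeq2, run as an alternative, called *Calr* and *Pdia3* at adjusted p-values of 0.0339 and 0.0302. In bulk RNA, fewer cells with high levels of these mRNAs and less of them per cell cannot be told apart. Gene positions below are those of GENCODE M21 on GRCm38. Of the genes that overlap them, only *1810014B01Rik*, which lies on the other strand of *Hsp90b1* and shares 273 bases with it, was above 1.29 CPM on average. It was at 9.83 CPM, or 1.19% of the level of *Hsp90b1*, and reads of the 2 cannot be told apart without strand. The near-identical copies *Calr-ps* and *Gm6568* (of *Dnajb9*) had no reads.

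**Figure D2:**
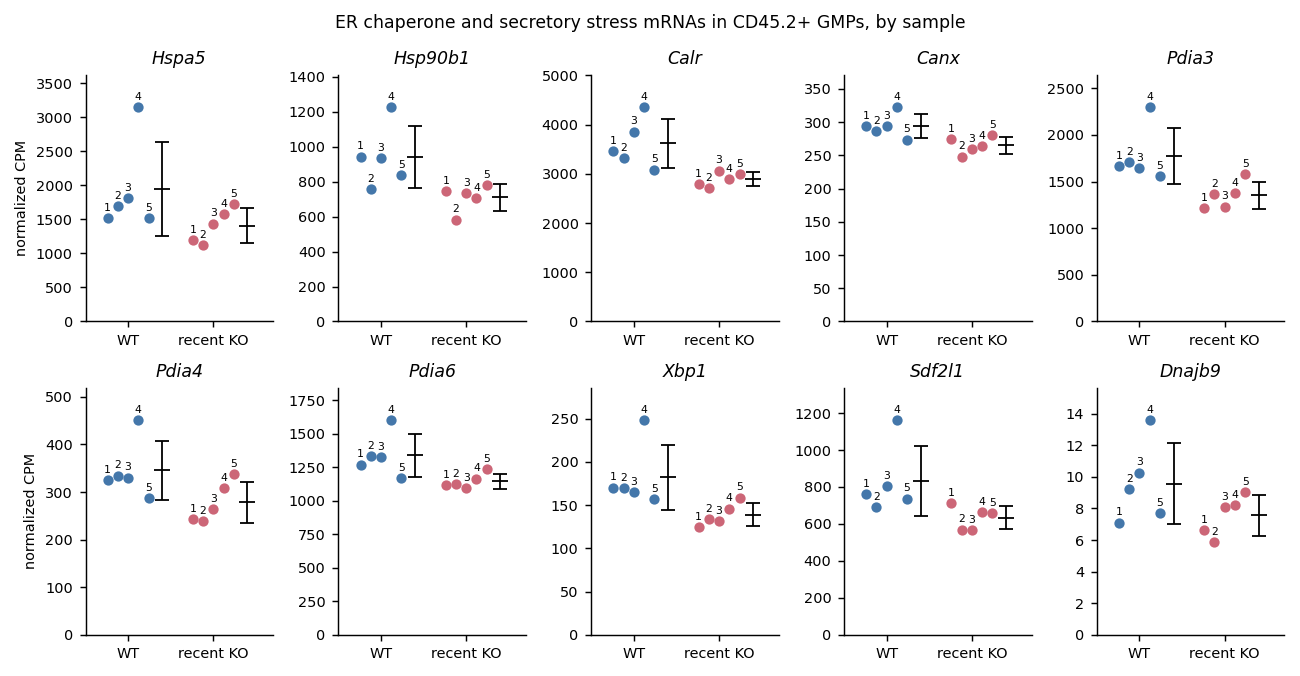
Normalized CPM of each gene in the 5 WT (blue) and 5 recent KO (red) samples, numbered by replicate, with the mean and SD beside each group; every axis starts at 0. WT replicate 4 is the highest sample in all 10 panels, and only in Calr do the groups not overlap.

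Of the Hsp70 and Hsp90 chaperones, *Hspa5* (chr2:34771970-34777547, plus strand) was at 1521, 1695, 1813, 3152 and 1521 CPM in WT replicates 1 to 5 and at 1190, 1117, 1438, 1572 and 1717 CPM in recent KO replicates 1 to 5. WT replicate 4 stood well above the other WT samples, and 2 recent KO samples lay within the range of the WT group. Recent KO GMPs held 0.725 times the WT level (95% interval 0.545 to 0.964; adjusted p = 0.424, edgeR), and the exact two-sided permutation test of the means gave p = 0.0794. Without WT replicate 4, its log2 fold change went from -0.46 to -0.22 (unadjusted p = 0.0965 and adjusted p = 0.700, edgeR). *Hsp90b1* (chr10:86690209-86705509, minus strand) was at 943.9, 757.1, 937.4, 1229 and 837.3 CPM in WT and 747.5, 583.5, 733.4, 707.4 and 780.8 CPM in recent KO samples. Only WT replicate 2 lay below the highest recent KO sample. The *Hsp90b1* ratio was 0.755 (95% interval 0.633 to 0.90; adjusted p = 0.220, edgeR; exact permutation p = 0.0159).

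Among the lectin chaperones, which hold glycoproteins while they fold, *Calr* (chr8:84841850-84846934, minus strand) was at 3460, 3321, 3858, 4362 and 3083 CPM in WT and 2790, 2716, 3066, 2893 and 2995 CPM in recent KO samples. It was the only one of the 10 genes for which every recent KO sample lay below every WT sample, by a narrow gap between 3066 and 3083 CPM, and 1.32% of all genes showed no overlap in this direction. Its ratio was 0.80 (95% interval 0.691 to 0.925; adjusted p = 0.24, edgeR), and its exact permutation p of 0.00794 was the smallest that 5 samples against 5 can give. *Canx* (chr11:50293961-50325673, minus strand) was at 294.4, 287.1, 294.4, 323.2 and 273.8 CPM in WT and 274.9, 248.2, 259.6, 264.2 and 280.2 CPM in recent KO samples. Calnexin mRNA varied less than that of its soluble relative in both groups. Its ratio of 0.901 was the closest to 1 of the 10 (95% interval 0.826 to 0.984; adjusted p = 0.401, edgeR; exact permutation p = 0.0238).

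The disulfide isomerases form and shuffle the bonds that lock folded chains. *Pdia3* (chr2:121413775-121438687, plus strand), whose product (ERp57) is brought to glycoproteins by calreticulin and calnexin, was at 1664, 1710, 1643, 2302 and 1557 CPM in WT and 1218, 1365, 1232, 1374 and 1576 CPM in recent KO samples. Recent KO replicate 5 was the only one of its group to reach the lowest WT value, and the ratio was 0.762 (95% interval 0.647 to 0.899; adjusted p = 0.214, edgeR; exact permutation p = 0.0159). *Pdia4* (chr6:47796141-47813430, minus strand) was at 324.9, 334.7, 330.4, 451.3 and 287.3 CPM in WT and 242.7, 239.5, 263.6, 307.6 and 337.7 CPM in recent KO samples. WT replicate 4 was the only WT sample above the highest recent KO sample, and the ratio was 0.805 (95% interval 0.672 to 0.965; adjusted p = 0.399, edgeR; exact permutation p = 0.0714). *Pdia6* (chr12:17266545-17284770, plus strand) was at 1271, 1334, 1325, 1603 and 1168 CPM in WT and 1116, 1123, 1093, 1166 and 1236 CPM in recent KO samples, with WT replicate 5 and recent KO replicate 5 alone crossing over. Its ratio was 0.856 (95% interval 0.756 to 0.969; adjusted p = 0.366, edgeR; exact permutation p = 0.0159).

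The stress-regulated genes gave a like picture. *Xbp1* (chr11:5520659-5525893, plus strand) was at 170.3, 169.4, 164.8, 248.5 and 157.2 CPM in WT and 124.7, 134.1, 131.3, 145.9 and 158.7 CPM in recent KO samples. WT samples other than replicate 4 lay close together, and recent KO replicate 5 alone lay within the WT range. The ratio was 0.764 (95% interval 0.644 to 0.906; adjusted p = 0.226, edgeR; exact permutation p = 0.0159). *Sdf2l1* (chr16:17130138-17132383, minus strand) was at 762.7, 692.9, 804.5, 1162 and 737.2 CPM in WT and 711.2, 569.4, 568.4, 663.9 and 657.6 CPM in recent KO samples. Only recent KO replicate 1 exceeded the lowest WT sample, and the ratio was 0.762 (95% interval 0.631 to 0.920; adjusted p = 0.277, edgeR; exact permutation p = 0.0159). *Dnajb9* (chr12:44205559-44210326, minus strand), at 7.10, 9.21, 10.3, 13.6 and 7.72 CPM in WT and 6.61, 5.87, 8.06, 8.22 and 9.02 CPM in recent KO samples, had widely overlapping groups and was the one gene that did not reach an unadjusted p of 0.05 (ratio 0.796, 95% interval 0.611 to 1.04; adjusted p = 0.559, edgeR; exact permutation p = 0.151).

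**Figure D3:**
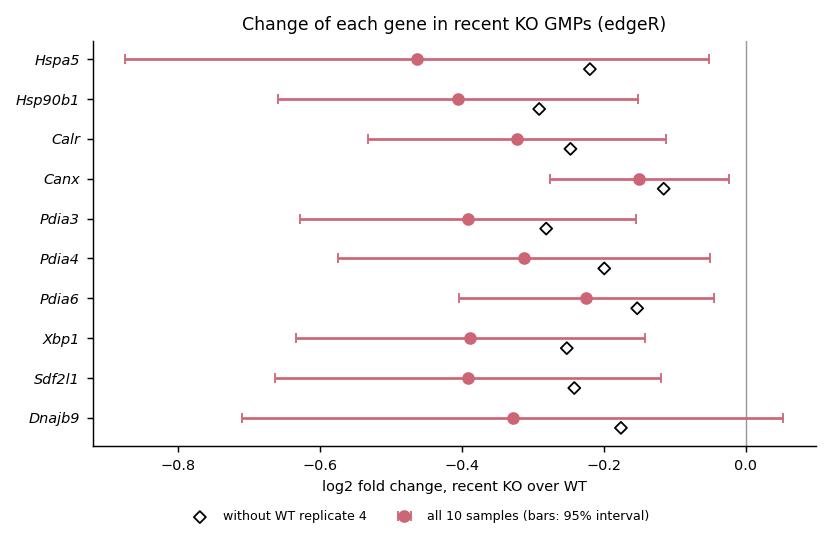
Log2 ratio of recent KO to WT for each gene from edgeR, with its 95% interval (red), and the value after leaving out WT replicate 4 (open diamonds). All 10 estimates lie below 0 in both fits, from -0.46 to -0.15 with all samples and from -0.29 to -0.12 without WT replicate 4.

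The 10 mRNAs moved together from sample to sample. WT replicate 4 was the highest of the 10 samples for 10 of the 10 genes, at 1.12 (*Canx*) to 1.92 (*Hspa5*) times the mean of the other 4 WT samples. Recent KO replicate 2 was the lowest for 6 genes and among the lowest 3 for all 10. These 2 samples had the fewest estimated reads, 14133700 and 14033800. Recent KO replicate 5 was the highest recent KO sample for 8 of the 10 genes and had a median rank of 5 of 10, against 6 of 10 for WT replicate 5, so that the groups met at these samples. The coefficient of variation was larger in WT (6.14% to 35.5%) than in recent KO samples (4.77% to 18.0%) for 10 of the 10 genes. This included WT replicate 4. Among the other WT samples the SD was below that of recent KO samples for *Hspa5* (143 against 253 CPM) and *Xbp1* (6.02 against 13.4 CPM). It was above it for *Calr* (325 against 144 CPM) and *Hsp90b1* (89.1 against 75.8 CPM). A WT sample was 1 mouse and a recent KO sample a pool of 2, and the part of pooling in the spread was not tested. Without WT replicate 4, the mean stayed lower in recent KO samples for 10 of 10 genes and the median log2 fold change was -0.23. In that fit 6 of the 10 kept an unadjusted p under 0.05, where 7.93% of all genes had one in either direction. The estimate moved by over 1.5 times for *Hspa5* (to -0.22), *Dnajb9* (from -0.33 to -0.18), *Sdf2l1* (from -0.39 to -0.24), *Pdia4* (from -0.31 to -0.20) and *Xbp1* (from -0.39 to -0.25), and the gene farthest from 0 was then *Hsp90b1* (-0.29). Without recent KO replicate 5, one of the 2 samples with *Igkc*, the median was -0.40.

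WT replicate 4 was also high in chaperones of the cytosol. It was the highest sample for 10 of 11 cytosolic chaperone genes, and recent KO replicate 2 was the lowest for 7 of the 11. The heat shock genes *Hspa1a* and *Hspa1b*, which heat and other damage induce, reached 120 and 144 CPM in WT replicate 4, but only 3.92 to 53.6 and 4.70 to 60.3 CPM in the rest of the WT group. In recent KO samples they lay at 3.01 to 22 and 3.50 to 23 CPM. Their log2 fold changes were -2.12 and -2.32 at adjusted p-values of 0.302 and 0.225 (edgeR). Over the cytosolic list, 8 of 11 genes were lower and 3 higher in recent KO samples, with a median log2 fold change of -0.024. Of all genes, 50.4% had a lower mean. *Hspa1a* and *Hspa1b* were the 2 of the list that were lower at an unadjusted p under 0.05 (edgeR), as were 5.35% of all genes. The part of these heat shock genes, or of what induced them, in the levels of the ER genes was not tested.

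Other genes of ER folding were lower as well. The list held 23 further chaperones, co-chaperones, isomerases and glycan-trimming enzymes, of which 23 had a lower mean in recent KO samples, 14 at an unadjusted p under 0.05 (edgeR), with a median log2 fold change of -0.21. The shares of all genes, for this list and those below, were 50.4% with a lower mean and 5.35% lower at an unadjusted p under 0.05. WT replicate 4 was the highest sample for 15 of the 23 genes. Their summed level was 3876 to 5110 CPM in WT and 3258 to 3620 CPM in recent KO samples, ranges that did not overlap. *Hyou1*, an ER chaperone that exchanges nucleotide on HSPA5, fell from 14.7 ± 1.27 to 10.3 ± 0.87 CPM (SD, n = 5 per group; log2 fold change -0.51, SE 0.10, adjusted p = 0.0406, edgeR). The WT samples were at 14.8, 13.1, 14.3, 16.6 and 14.6 CPM and the recent KO samples at 9.35, 9.30, 10.6, 11.1 and 10.9 CPM, so that the groups did not overlap. *Hyou1* was the only gene of these folding lists that passed. Over all genes, 1.32% showed no overlap in this direction.

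The other steps of the secretory pathway had medians closer to 0. Of 15 genes of the translocon, the channel and signal peptidase through which chains enter the ER, 14 were lower, 2 of them (*Sec61a1* and *Ssr1*) at an unadjusted p under 0.05, with a median log2 fold change of -0.10. The oligosaccharyltransferase, which adds the sugar chain, had 9 of 10 subunits lower with a median of -0.13, and *Rpn1* had the smallest p at 678 ± 40.3 against 587 ± 24.2 CPM (adjusted p = 0.225). ER-associated degradation, which removes chains that fail to fold, had 15 of 18 genes lower with a median of -0.089, with *Os9* (132 ± 14.5 against 112 ± 8.55 CPM) and *Edem2* (173 ± 17.1 against 150 ± 9.21 CPM) at adjusted p-values of 0.317 and 0.326. No gene of these 3 lists passed an adjusted p of 0.05 by edgeR.

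None of the sensor or PERK arm genes passed an adjusted p of 0.05 (edgeR). Of 8 genes for the sensors, the proteases that cut ATF6 and related factors, 6 were lower, 3 of them at an unadjusted p under 0.05, and the median was -0.13. Their smallest p-values were those of *Atf6b*, at 45.6 ± 2.67 CPM in WT samples, against 39.8 ± 1.77 CPM after *Mpc2* loss (adjusted p = 0.298) and *Eif2ak3*, which encodes PERK, at 5.90 ± 1.08 and 4.50 ± 0.44 CPM (adjusted p = 0.409). Of the 9 genes listed as targets of PERK and CHOP, 7 could be tested and 0 had an unadjusted p under 0.05, with a median log2 fold change of -0.071. Their smallest p-values belonged to *Sesn2* (5.07 ± 1.13 against 4.42 ± 1.17 CPM, adjusted p = 0.833) and *Ppp1r15a* (21.5 ± 5.54 against 18.6 ± 5.78 CPM, adjusted p = 0.839).

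**Figure D4:**
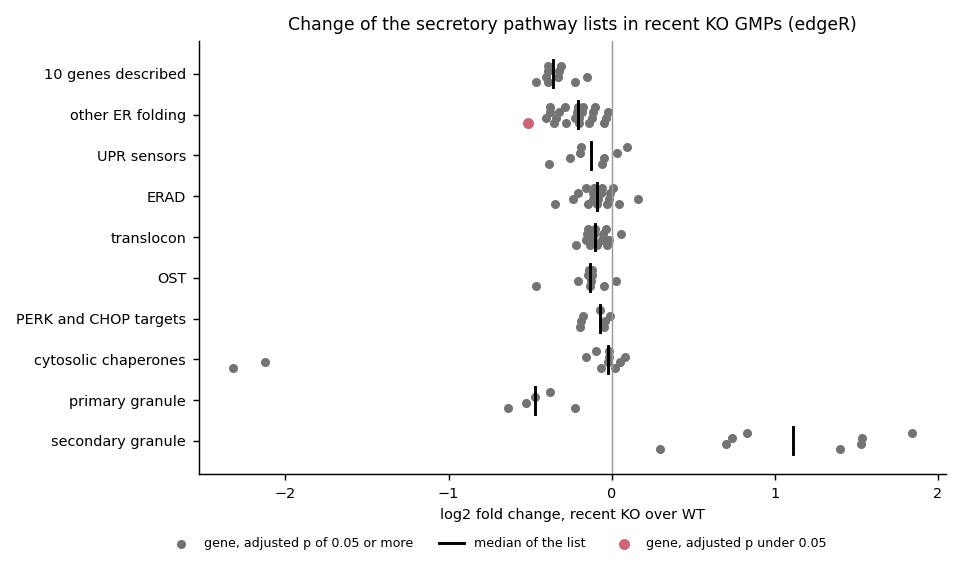
Log2 ratio of recent KO to WT for each tested gene of the secretory pathway lists and of the granule protein lists, with the median of each list as a black bar; genes at an adjusted p under 0.05 are red. The medians are -0.36 for the 10 genes, -0.024 for cytosolic chaperones, -0.47 for primary granule and 1.11 for secondary granule genes, and Hyou1 is the only red point.

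No shift between transcripts of a gene was called. The main protein-coding transcript took at least 84.6% of a gene's estimated reads in every sample. Of 26 transcripts with a share, 3 had an exact permutation p under 0.05 with no adjustment, among them the intron-retaining *Xbp1-202*, which took 3.18% ± 0.67 of *Xbp1* reads in WT and 2.24% ± 0.51 in recent KO samples (SD, n = 5 per group; exact p = 0.0397). None of the 25 transcripts tested by edgeR passed an adjusted p of 0.05 over 26185 transcripts, of which 11 passed (0.042%). No annotated *Xbp1* transcript lacks just the 26 bases that IRE1 removes, the shortest annotated intron of the gene being 300 bases long, so the spliced share could not be read from these files.

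The mRNA of primary granule proteins was measured by the sum of *Mpo* (myeloperoxidase), *Elane* (neutrophil elastase), *Prtn3* (proteinase 3), *Ctsg* (cathepsin G) and *Prss57*. No protein was measured. The sum was 88630, 109246, 112656, 123290 and 87393 CPM in WT and 80292, 89563, 51466, 67761 and 72353 CPM in recent KO samples. WT replicate 4 was the highest and recent KO replicate 3 the lowest, and recent KO replicate 2 reached the range of the WT group. The means were 104243 ± 15703 and 72287 ± 14288 CPM (SD, n = 5; exact permutation p = 0.0238). All 5 genes had lower means in recent KO samples, *Mpo* at 61005 ± 7466 and 42407 ± 7537 CPM, *Elane* at 24646 ± 4954 and 15884 ± 5342, *Prtn3* at 7331 ± 1894 and 5291 ± 986, *Ctsg* at 10851 ± 1866 and 8354 ± 1408, and *Prss57* at 410 ± 35.5 and 351 ± 68.1 CPM, and 0 of the 5 passed an adjusted p of 0.05 (0.272 to 0.529, edgeR).

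Across the 10 samples, the correlation of each of the 10 ER mRNAs with primary granule mRNA was positive, and no slope passed an adjusted p of 0.05. Pearson's r with the log2 granule sum had a median of 0.67 and ran from 0.46 (*Dnajb9*) to 0.77 (*Pdia6*), and 6 of the 10 had a permutation p under 0.05 with no adjustment. The share of all genes passing this permutation test was not computed, so whether 6 of 10 is unusual cannot be judged from it. The count also depended on the scale and the granule measure, as given under the processing below. The median r was 0.00027 over the 12258 tested genes with reads in every sample, which include the 10 and the granule genes. Spearman's rho ran from 0.41 to 0.78. For *Pdia6*, r was 0.77 (permutation p = 0.00929) and rho 0.78 (permutation p = 0.0109). For *Pdia3*, r was 0.77 (permutation p = 0.0103) and rho 0.71 (permutation p = 0.0268). For *Hspa5*, r was 0.51 (permutation p = 0.129) and rho 0.45 (permutation p = 0.190). These are 20 relations of genes that move together, so they are not independent, and the adjustment was made over all genes in the edgeR fit of the slope.

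In that fit, 0 of the 10 slopes passed an adjusted p of 0.05, as did 2.77% of all genes, and 9 of the 10 were positive at an unadjusted p under 0.05, as were 8.02% of all genes. All 10 slopes were positive, as were 50.8% of all genes. *Pdia3* came closest, with a slope of 0.56 on the log2 scale per log2 unit of granule mRNA (SE 0.14, adjusted p = 0.0502), followed by *Sdf2l1* (0.58, SE 0.16, adjusted p = 0.0659), *Xbp1* (0.53, SE 0.15, adjusted p = 0.0889) and *Pdia6* (0.35, SE 0.10, adjusted p = 0.0983). *Calr*, *Hsp90b1*, *Hspa5*, *Pdia4*, *Canx* and *Dnajb9* had slopes of 0.20 to 0.60 at adjusted p-values of 0.192 to 0.431. Of the further folding genes, 4 of 23 had a slope past the threshold: *P4hb* (adjusted p = 0.0041), *Ero1lb* (0.0027), *Ero1l* (0.0283) and *Dnajc3* (0.0419), the first 3 of which encode the isomerase PDI and the oxidases that recharge it. These 4 were named after their values were seen.

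The relation rested in part on single samples and on the groups. Leaving out recent KO replicate 3 and WT replicate 4, the samples farthest from the median granule sum, brought the median r to 0.42 with a range of 0.19 (*Pdia4*) to 0.69 (*Calr*). Without WT replicate 4 alone, 4 of the 10 slopes kept an unadjusted p under 0.05, where 11.5% of all genes had one in either direction. The smallest adjusted p of the 10 was 0.267. With the group as a second term the 10 slopes were positive, as were 51.4% of all genes, from 0.065 (*Hsp90b1*) to 0.43 (*Sdf2l1*). By edgeR, 0 of the 10 passed an adjusted p of 0.05, as did 0.46% of all genes, and 0 of them had an unadjusted p under 0.05, as did 5.61% of all genes in the positive direction, so no relation within groups was detectable. Within the recent KO group the order ran the other way for some genes, since replicates 1 and 2 held the most granule mRNA of that group and the least *Hspa5*, *Pdia4*, *Calr* and *Dnajb9*. Groups of 5 were too small for a correlation of their own.

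**Figure D5:**
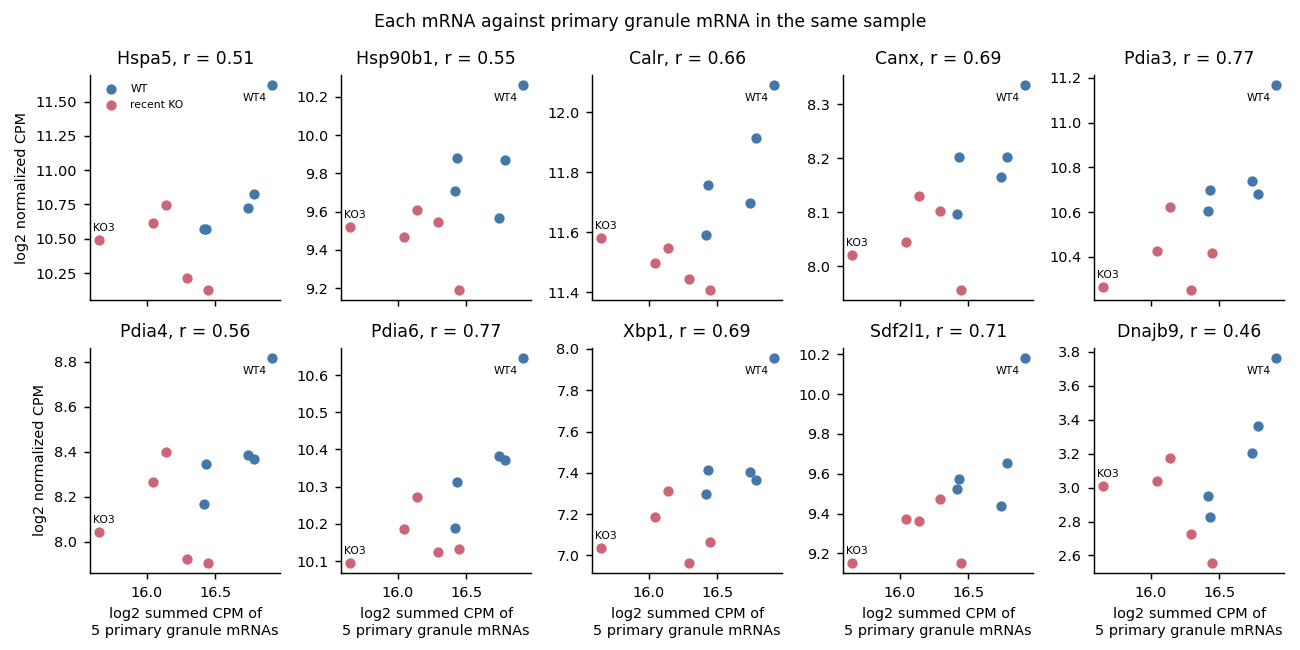
Log2 normalized CPM of each gene against the log2 summed CPM of 5 primary granule mRNAs in the 5 WT (blue) and 5 recent KO (red) samples, with Pearson's r over the 10 samples. WT replicate 4 (WT4) is the top right point in every panel, and recent KO replicate 3 (KO3) has the least granule mRNA.

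Set against primary granule mRNA, the ER mRNAs gave another order of the samples. Per 100 CPM of primary granule mRNA, the 10 genes summed to 11.8, 9.44, 9.92, 12 and 11 CPM in WT and 10.5, 9.05, 17.1, 13.4 and 13.5 CPM in recent KO samples. The recent KO samples held both the lowest value (replicate 2) and the 3 highest (replicates 3, 4 and 5). Secondary granules are filled later in maturation. Their 8 genes summed to 116 to 224 CPM in WT and 111 to 493 CPM in recent KO samples, with recent KO replicate 2 the highest, and against this sum all 10 slopes were negative and close to 0, from -0.16 to -0.011, with unadjusted p-values of 0.244 to 0.897.

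The genes whose levels followed the mean standardized log2 CPM of the 10 most closely, among 7137 others with a mean of at least 10 CPM, were *Emilin1*, *Mgat2*, *Cpox*, *Rgs2*, *Dnajc3*, *Armcx3*, *Plod3*, *Eloa*, *Cdk2ap2* and *Manf*, with r from 0.92 to 0.95 over the 10 samples, given without a test. *Dnajc3* and *Manf* belong to the folding list. *Dnajc3* encodes a co-chaperone of HSPA5 and was at 190 ± 39.9 and 144 ± 8.72 CPM in WT and recent KO samples (adjusted p = 0.206, edgeR). Its groups did not overlap, as for 1.32% of all genes in this direction. *Manf*, a secreted factor that rises under ER stress, was at 504 ± 151 and 387 ± 62.2 CPM (adjusted p = 0.454). *Mgat2* and *Plod3* encode enzymes that modify glycoproteins and collagens in the secretory pathway.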

How the data were processed

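The members and the gene lists were chosen with earlier results of these data known. RNA was taken from sorted CD45.2+ GMPs (NucleoSpin RNA XS), amplified with SMARTseq V4, and sequenced as paired-end reads on a NovaSeq. Per the labels and the study's methods, the authors ran Salmon 1.5.1 on Gencode M27 (GRCm39) and deposited, for each transcript, estimated counts without any normalization (fractions of reads occur) and TPM, scaled to effective length and to 1 total per sample. Their DESeq2 comparison (2.11.40.6 in the submitters' processing notes), a deposited table of fold changes and p-values, was not used. The kit does not mark strand.

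Since genes were named from GENCODE M21 (GRCm38), transcripts were matched by Ensembl identifier without version: 137161 of 140789 (97.4%) matched, and the 3628 others held 0.348% to 0.390% of reads and were left out. Estimated counts were summed to 51717 genes, rounded, and tested in R 4.3.3 by the quasi-likelihood method of edgeR 4.0.16 with TMM factors, filterByExpr at a minimum count of 10, and the group as the only term, with Benjamini-Hochberg adjustment at 0.05 over 12381 genes. A further edgeR fit had as its only term the log2 summed CPM of 5 primary granule genes. The means of single genes were set against each other by two-sided exact permutation, and correlations by 100000 permutations (two-sided). Levels are TMM-normalized CPM. Counts of 3 stood as the floor, 0.153 to 0.215 CPM per sample. Libraries had no molecular identifiers, so precision from depth covers counting error only. Replicates of a group differed by a chi-square of 6.71 to 46.5 per gene and counted as separate samples; a recent KO sample pools mice, and p-values measure the spread between these samples. The fits were tested on simulated data. Copies of the genes were sought with BLAST 2.17.0 (at least 90% identity over 200 bases). The promoter windows came from RefSeq (GRCm38.p6), the other steps from Python 3.11.15, numpy 2.4.6, pandas 2.3.3, scipy 1.17.1 and matplotlib 3.10.9.

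The genes named were the 10, *Mpc2*, the 5 primary granule genes, in every other list the genes past the threshold or else the 2 with the smallest p, and the 10 most alike; others are said to be chosen after their values were seen, as were *Kit*, *Cd34*, *Cebpa*, *Igkc* and *Mzb1*. Alternatives were other normalizations, filters, tools (DESeq2 1.42.0, limma 3.58.1), scales and granule measures, a transcript length offset, transcripts, a replicate block, and leaving out each sample. 1 alternative was added after seeing the data.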

Additional observations from a re-analysis of the deposited data

Results flagged for a closer look

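Samples were examined for a single value far from the other 4 of its group, by Dixon's ratio above 0.71, in 98 groups of 5 over 49 named genes. This picked out 9 values where about 4.9 would arise by chance (1 in 20 groups), and since the genes move together the groups are not independent. WT replicate 4 gave 5 of them among the 10 ER genes: *Hspa5* at 3152 CPM against 1521 to 1813 CPM in the other WT samples, *Pdia3* at 2302 CPM against 1557 to 1710 CPM, *Pdia4* at 451.3 CPM against 287.3 to 334.7 CPM, *Xbp1* at 248.5 CPM against 157.2 to 170.3 CPM, and *Sdf2l1* at 1162 CPM against 692.9 to 804.5 CPM. The same sample stood apart for the translocon subunit *Ssr1*, at 429.5 CPM against 345.6 to 351.5 CPM. Recent KO replicate 2 stood apart for the oligosaccharyltransferase subunits *Rpn1* (629.6 CPM against 568.2 to 581.1 CPM) and *Rpn2* (528.0 CPM against 454.8 to 475.8 CPM) and for the basophil protease gene *Prss34* (5.45 CPM against 0.684 to 1.89 CPM).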

How the results depend on the processing

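In recent KO against WT, each of the 10 genes had a lower mean in recent KO samples under every alternative that gave gene values, and leaving out any single sample called none of them. The number lower at an unadjusted p under 0.05 was 9 as reported, 10 with no filter and 8 by DESeq2. It was 6 with library size only and 5 by limma on either TPM scale. With library size only, the median log2 fold change of all genes was 0.069, and that of the 10 was -0.28. All genes called numbered 41 in the reported fit and 206 with no filter on low counts (4 of the 10 genes: *Hsp90b1*, *Pdia3*, *Xbp1* and *Sdf2l1*), 156 by DESeq2 (2 of the 10), 25 and 24 by limma on log2(TPM + 1) and log2(TPM + 0.1), 11 with transcripts in place of genes, and 25 (without recent KO replicate 3) to 91 (without recent KO replicate 2) with 1 sample left out. Of the genes called, 26 of 41 were lower in recent KO samples, against 96 of 206 with no filter and 79 of 156 by DESeq2. For the relation to granule mRNA, 343 genes were called in the reported fit, 593 by DESeq2 (4 of the 10: *Pdia3*, *Pdia6*, *Xbp1* and *Sdf2l1*), 132 and 132 by limma with the same pseudocounts, 200 with a length offset, 223 with *Mpo* alone, 57 with the group as a second term, 0 against the secondary granule sum, and 46 (without recent KO replicate 3) to 418 (without recent KO replicate 2) with 1 sample left out. Of the 10, 2 were called there with no filter (*Pdia3* and *Sdf2l1*), 1 with *Mpo* alone (*Pdia3*), 1 with the mean standardized measure (*Sdf2l1*), 1 with factors from unfiltered genes (*Pdia3*, added after seeing the data), and 0 to 2 with 1 sample left out. Genes with a permutation p under 0.05 numbered 6 as reported, 0 with log2(TPM + 1), 0 against the secondary granule sum, 1 with library size only, and 2 to 7 with 1 sample left out. Library size alone moved the median slope of all genes to -0.15. The causes were not tested.

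Against the secondary granule sum the slopes reversed to -0.073 (*Hspa5*), -0.16 (*Hsp90b1*), -0.10 (*Calr*), -0.042 (*Canx*), -0.021 (*Pdia3*), -0.077 (*Pdia4*), -0.011 (*Pdia6*), -0.036 (*Xbp1*), -0.035 (*Sdf2l1*) and -0.10 (*Dnajb9*), and r, in the same order, to -0.21, -0.40, -0.34, -0.27, -0.078, -0.23, -0.061, -0.13, -0.12 and -0.27.

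Replicate numbers are shared by the groups. Deviations of same-numbered samples from their group means correlated at -0.17 to 0.037, and those of other pairs at -0.29 to 0.33. Same-numbered samples were thus no more alike than others, but 5 such pairs are too few to exclude a pairing. The labels do not state one. With the replicate block, 20 genes were called between the groups and 93 for the slope, and 0 of the 10 in both. Depth limited only *Dnajb9*, and the share of spliced *Xbp1* was not run because no annotated transcript carries it.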

Other observations

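Of the markers of other cells, *Ighm* and the complement genes *C1qa*, *C1qb* and *C1qc* passed an adjusted p of 0.05 between the groups (edgeR). The others tested did not, and the part of these cells in the levels of the ER genes was not tested. The 8 neutrophil granule genes of the secondary granules had higher means in recent KO samples in 8 of 8 cases, 4 at an unadjusted p under 0.05 and 0 at an adjusted p of 0.05 (edgeR), where 49.6% of all genes had a higher mean and 4.89% were higher at an unadjusted p under 0.05. *Ltf* (lactoferrin) had a mean of 3.10 ± 1.61 CPM in WT samples, against 11.4 ± 11 CPM after *Mpc2* loss (SD, n = 5 per group; adjusted p = 0.273), and *Ngp* at 22 ± 10.4 and 64.1 ± 56.8 CPM (adjusted p = 0.361). The 7 neutrophil markers summed to 116 to 415 CPM in WT and 114 to 679 CPM in recent KO samples, and *Retnlg* had the smallest p among them (3.88 ± 2.06 against 11.4 ± 7.96 CPM, adjusted p = 0.246). Recent KO replicate 2 was the highest sample for both sums.

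Red cell and megakaryocyte markers summed to 18.9 to 37.9 CPM in WT and 33.6 to 113 CPM in recent KO samples, with *Pf4* at 3.33 ± 1.54 and 8.65 ± 2.22 CPM (adjusted p = 0.122) and the globin gene *Hbb-bt* at 3.68 ± 2.17 and 14.1 ± 9.20 CPM (adjusted p = 0.176). The 6 monocyte markers had lower means in 6 of 6 cases (50.4% of all genes), *Cx3cr1* at 5.56 ± 1.24 and 3.45 ± 0.23 CPM (adjusted p = 0.155) and *Irf8* at 136 ± 17.9 and 93.3 ± 30.6 CPM (adjusted p = 0.302), and their sum was lowest in recent KO replicate 3, the sample with the least primary granule mRNA. Of the 8 GMP markers, 5 had a lower and 3 a higher mean in recent KO samples, with a median log2 fold change of -0.11. The smallest p-values were those of *Fcgr3*, at 404 ± 37.9 and 258 ± 62.2 CPM (adjusted p = 0.107), and *Cebpe*, a factor of granule gene expression, at 49.5 ± 7.29 and 35.8 ± 9.06 CPM (adjusted p = 0.305). The groups did not overlap for *Fcgr3*, as for 1.32% of all genes in this direction.

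In the basophil and mast cell list, *Mcpt8* was at 135 ± 18.3 and 194 ± 35.3 CPM (adjusted p = 0.112) and *Prss34* at 4.95 ± 2.96 and 2.01 ± 1.99 CPM (adjusted p = 0.421). The immunoglobulin heavy chain gene *Ighm*, which early progenitors can transcribe without making antibody, fell from 116 ± 17.0 to 68.1 ± 16.7 CPM (adjusted p = 0.0468). Its groups did not overlap, as for 1.32% of all genes in this direction. Of the lymphoid markers, *Nkg7* was at 2242 ± 371 and 1891 ± 209 CPM (adjusted p = 0.495) and *Klrb1c* at 0.684 ± 0.28 and 0.813 ± 0.37 CPM (adjusted p = 0.902). Of the genes for processing and storing granule proteins, *Ctsc*, which activates the serine proteases, was at 93.8 ± 14.5 and 79.1 ± 8.91 CPM (adjusted p = 0.429) and *Serpinb1a*, an inhibitor of elastase, at 1011 ± 82.7 and 907 ± 76.7 CPM (adjusted p = 0.516).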
